A study of Mus musculus with 70 samples.

Results

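Mouse embryonic stem cells (mESCs) were compared with the embryonic mouse brain, taking 13 of the 70 libraries of the series: 4 from mESCs and 9 from brain regions dissected from embryos at E14.5. The libraries were chosen by their labels alone. The mESCs were 2 clones derived from C57BL/6 embryos, B6-1 and B6-2, with 2 libraries each, grown free of feeder cells on gelatin with LIF, inhibitors of GSK3 and MEK and medium conditioned by embryonic fibroblasts, after earlier passages on a layer of irradiated fibroblasts. The brain tissue came from wild-type embryos, C57BL/6 by the labels and of the C57BL/6NTac substrain by the study's methods, and was punched from sections of the forebrain (F, 1 library), the terminal and peduncular hypothalamus (THy/PHy, 3 libraries), the midbrain (M, 2 libraries) and the hindbrain (H, 3 libraries), with tissue of several embryos pooled for a library. By the study's methods the embryos were fewer than the libraries would need if none were shared, so embryonic libraries share embryos in a way not given in the sources used here, and the tests, which treat the 9 libraries as separate, do not account for it. RNA of the cells and of the punches was extracted with different kits, and the stem cell libraries were not made in the same batch as the embryonic ones, so developmental stage, culture, extraction and batch cannot be told apart in any value below.

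Embryonic stem cells are kept in self-renewal by a network of transcription factors around Pou5f1 (Oct4), Sox2 and Nanog, which LIF signalling through Stat3 and the relief of Tcf7l1 repression by GSK3 inhibition sustain. Inhibition of MEK holds back the FGF signal that would move the cells towards the epiblast that lines the embryo before gastrulation. At midgestation the neural tube holds dividing progenitors, which express Sox2, Pax6 and Notch pathway genes, and the first neurons they have released, with regional transcription factors that mark forebrain, hypothalamus, midbrain and hindbrain.

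Values are TPM, the length-scaled share of a library's transcripts, so that levels can be set side by side between genes. A single value for THy/PHy, M or H is the mean of its libraries. Differences are given as mESC minus embryonic brain on the scale of log2(TPM + 0.5), with the 2 clones and the 4 regions weighted equally, which understates the change of genes with low values and, for a gene at 0 throughout a group, depends on the added 0.5 and is no bound. A gene was called higher or lower at a difference beyond 1 in either direction and an adjusted p under 0.05 (limma, Benjamini-Hochberg over the 18343 genes tested). By this rule 3649 genes (19.9% of those tested) were higher in mESCs and 5883 (32.1%) were lower. The gene at the middle of all those tested differed by -0.27, and scaling the TPM values by the trimmed mean of M values (TMM) brought that median to 0.02 and the calls to 4694 higher and 4961 lower. The share of calls that were higher in mESCs thus went from 38.3% to 48.6% with the scaling, and no gene was called in the opposite direction. Genes were tested if they had at least 1 TPM in at least 2 of the 13 libraries. A gene below 1 TPM throughout one group thus entered through the other group and had to differ, so counts and medians over such genes describe the lists and are no support for a direction. Without any test, 4079 genes (22.2%) had all 4 mESC libraries above all 9 embryonic ones and 5747 (31.3%) had all 4 below.

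The mESC libraries held 12985081 to 18501667 estimated counts and the embryonic ones 9074581 to 22229582. Genes of the mitochondrial genome took 3.55 to 5.14% of TPM in mESCs and 2.69 to 11.8% in 8 embryonic libraries, against 22.6% in H 1, which also had the lowest total count. Calls without H 1 numbered 3581 higher and 6041 lower. Across the tested genes, log2(TPM + 1) correlated at r = 0.985 to 0.988 between libraries of a clone, at 0.977 to 0.980 between the clones and at 0.917 to 0.976 between libraries of a region. Between mESC and embryonic libraries r was 0.734 to 0.740 for F, 0.662 to 0.671 for M, 0.659 to 0.679 for THy/PHy and 0.640 to 0.671 for H. These are correlations across genes, which are not independent replicates, and F is 1 library. Genes with at least 1 TPM numbered 14157 ± 70 a library in mESCs (SD, n = 4) and 15133 ± 289 in the embryonic brain (SD, n = 9), a difference of -976 genes (exact permutation test, two-sided, p = 0.0028). With a limit of 0.1 TPM the direction turned, to 358 more in mESCs (exact permutation test, two-sided, p = 0.12).

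Both marker genes of the stem cell state marked the 4 mESC libraries and were close to 0 in the embryonic brain. Pou5f1 (chr17:35506018-35510772 on GRCm38, + strand), the POU domain factor at the centre of the network, had 1081 and 1036 TPM in the B6-1 libraries and 989.8 and 1003 TPM in the B6-2 libraries. The 9 embryonic libraries lay between 0 and 2.14 TPM (median 0.0854), the highest being M 2, so that the groups did not overlap (log2 difference 10.38, SE 0.35, adjusted p = 3.5e-09). Nanog (chr6:122707489-122714633, + strand), the homeobox factor that stabilises self-renewal, had 546 and 572 TPM in the B6-1 libraries and 576 and 541 TPM in the B6-2 libraries, and embryonic values lay between 0.301 and 1.02 TPM (median 0.733). The mESC libraries thus spanned a narrow range for Nanog, and no embryonic library exceeded 1.02 TPM (log2 difference 8.81, SE 0.17, adjusted p = 2.5e-10). The other mESC markers set for the check (Zfp42, Esrrb, Dppa5a and Tdh) were likewise higher in all 4 mESC libraries than in any embryonic one, and the neural markers Pax6, Sox1, Fabp7, Dcx, Stmn2 and Elavl3 were higher in all 9 embryonic libraries than in any mESC library.

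**Figure D1:**
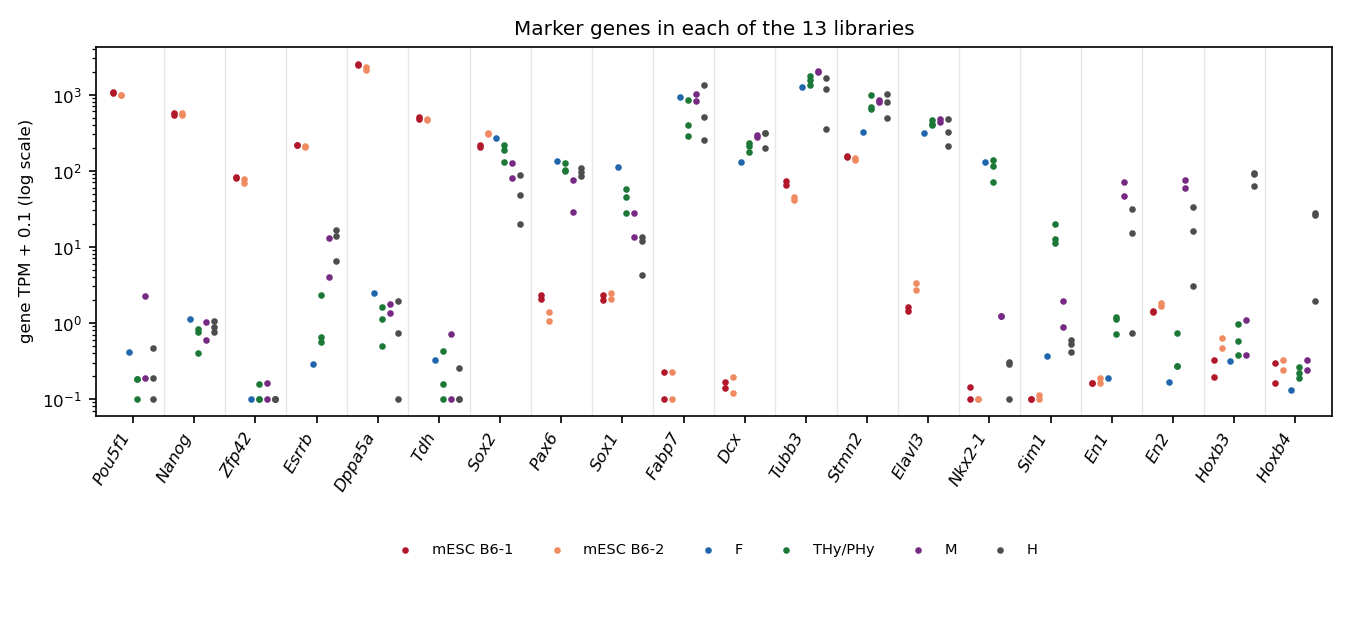
TPM + 0.1 (log scale, vertical axis) of 20 marker genes in each of the 13 libraries, with 1 point for a library and colours for mESC B6-1, mESC B6-2, F, THy/PHy, M and H. Pou5f1, Nanog, Zfp42, Dppa5a and Tdh lie at 68.8 TPM or more in mESCs and at 2.39 TPM or less in the embryonic brain, Sox2 overlaps between the groups, and Nkx2-1, Sim1, En1, En2, Hoxb3 and Hoxb4 are high in some regions only.

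Core and naive pluripotency genes rose together: 26 of the 28 on the list were higher in mESCs, none was lower, and the median difference was 6.76 against -0.27 over all genes tested. Of the 28, 12 stayed under 1 TPM in all 9 embryonic libraries and were tested only through mESCs. The largest differences belonged to Dppa5a, an RNA-binding protein of pluripotent cells, to Pou5f1 and to Tdgf1, the NODAL co-receptor. Dppa5a had 2464 and 2546 TPM in the B6-1 libraries and 2298 and 2109 TPM in the B6-2 libraries and lay between 0 and 2.39 TPM (median 1.25) in the embryo, which left no overlap (log2 difference 10.42, SE 0.37, adjusted p = 5.2e-09). Tdgf1 had 534, 534, 728 and 714 TPM in mESCs and between 0 and 0.479 TPM (median 0) in the embryo (log2 difference 10.06, SE 0.23, adjusted p = 4.1e-10). Utf1, a chromatin factor of undifferentiated cells, averaged 188 ± 39.1 TPM in mESCs (SD, n = 4) and was listed at 0 in F, THy/PHy and M (log2 difference 8.51, SE 0.15, adjusted p = 1.5e-10).

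Factors of the naive state, in which mESCs resemble the early epiblast, were high in mESCs and mostly absent from the brain. Tfcp2l1, a target of LIF signalling, ran from 117 to 122 TPM in mESCs and 0.167 to 0.978 TPM in the embryo, and Prdm14, a repressor of the FGF response, from 25.1 to 29.6 and 0 to 0.0792 TPM. Zfp42 (Rex1) had 79.9, 82.4, 78 and 68.8 TPM in mESCs and at most 0.061 TPM in any embryonic library (log2 difference 7.24, SE 0.14, adjusted p = 2.4e-10). Some of these factors are also used in the embryo. Esrrb, an orphan nuclear receptor, had 219, 218, 209 and 206 TPM in mESCs, and its embryonic means were 0.189 TPM in F, 1.07 TPM in THy/PHy, 8.47 TPM in M and 12.2 TPM in H (log2 difference 6.12, SE 0.39, adjusted p = 2.8e-07). Tbx3, a T-box factor that is also known in the developing hypothalamus, averaged 106 TPM in mESCs and 0.504 TPM in F, 20 TPM in THy/PHy, 1.56 TPM in M and 2.54 TPM in H. Klf2, Klf4 and Klf5, Krüppel-like factors of the network, had differences of 3.61, 4.18 and 4.60, with embryonic values of 3.95 to 7.52, 2.09 to 9.34 and 2.19 to 12.2 TPM.

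Sox2, which works with Pou5f1 in stem cells and maintains progenitors in the neural tube, was the pluripotency factor with the most embryonic RNA. It had 207 and 219.5 TPM in the B6-1 libraries and 306 and 310.5 TPM in the B6-2 libraries. In the embryo its TPM was 272 in F, 217, 186 and 129.5 in THy/PHy, 80.7 and 125 in M and 19.9, 47 and 88 in H. F lay within the mESC range and the hindbrain far below it, so the call over all regions (log2 difference 1.09, SE 0.34, adjusted p = 0.015) went with a difference of -0.09 against F and 2.54 against H. Without H 1 the difference was 0.95 (adjusted p = 0.0028 by limma), under the limit of 1, which left 25 genes of the list called. Gbx2, a LIF target that also patterns the anterior hindbrain, had 13.9 to 16.7 TPM in mESCs and 3.6 TPM in F, 14.3 TPM in THy/PHy, 3.22 TPM in M and 33.8 TPM in H and was not called (difference 0.89, adjusted p = 0.097 by limma).

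Promoters of the list were searched for letters that POU factors read. The octamer core ATGCAAA was searched on both strands in the RefSeq promoters of GRCm38.p6 (250 bases before to 50 after a start site). It lay in 4 of the 20 promoters found for 16 genes of the pluripotency list (20%, from Nanog, Sox2 and Zfp42), in 5 of the 25 found for 20 genes of the neural progenitor list (20%) and in 4.63% of all 32851 promoters. Nanog and Zfp42 are shown because both genes were high in all mESC libraries and near 0 in the brain, while Sox2, with the same letters, had RNA in the brain as well. Capitals mark the core, which lies on the other strand and so reads TTTGCAT, 75 bases before the start in Nanog and 185 bases before it in Zfp42, at chr6:122707239-122707538 (+ strand) and chr8:43306960-43307259 (- strand).
Nanog: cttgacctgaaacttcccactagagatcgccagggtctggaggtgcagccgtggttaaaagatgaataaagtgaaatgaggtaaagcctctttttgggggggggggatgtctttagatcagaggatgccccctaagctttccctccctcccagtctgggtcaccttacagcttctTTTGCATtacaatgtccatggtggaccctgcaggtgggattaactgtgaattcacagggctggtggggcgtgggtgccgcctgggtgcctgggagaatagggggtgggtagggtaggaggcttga
Zfp42: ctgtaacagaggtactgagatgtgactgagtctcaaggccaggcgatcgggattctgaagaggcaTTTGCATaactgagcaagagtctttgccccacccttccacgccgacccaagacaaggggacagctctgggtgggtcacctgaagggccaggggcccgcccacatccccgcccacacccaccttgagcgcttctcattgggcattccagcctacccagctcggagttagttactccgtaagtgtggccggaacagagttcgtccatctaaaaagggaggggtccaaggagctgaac
A match describes the letters in this window and says nothing on whether a factor was bound.

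Germline genes, which act in meiosis and in the silencing of transposons in germ cells, were detected in the stem cells and for the most part scarcely in the brain. Of the 20 on the list, 19 were higher in mESCs and Tdrkh was lower, with a median difference of 4.21, and 16 stayed under 1 TPM in every embryonic library, so that they entered the test through mESCs alone. Rpl10l, the testis copy of a ribosomal protein gene, had the largest difference (8.27) at 147 to 176 TPM in mESCs, although reads of the near-identical Rpl10 may be divided between the copies. Dazl, an RNA-binding protein needed by germ cells, had 103 and 96.5 TPM in the B6-1 libraries and 183 and 166 TPM in the B6-2 libraries, against at most 0.134 TPM in the embryo (log2 difference 7.82, SE 0.13, adjusted p = 1.5e-10). Sycp1, of the synaptonemal complex that joins chromosomes in meiosis, had 76.3, 65.6, 114 and 103 TPM in mESCs and was listed at 0 in F, THy/PHy and M (log2 difference 7.44, SE 0.14, adjusted p = 2.4e-10). Hormad1, a meiotic chromosome axis protein, ran from 71.1 to 93.5 TPM in mESCs and was listed at 0 in all 9 embryonic libraries. Lower levels were found for Ddx4 (Vasa), a germ cell helicase, at 9.31 to 15.4 TPM in mESCs and 0.732 to 1.57 TPM in the embryo, and for Sycp3, at 7.87 to 13.9 and 0 to 0.648 TPM. Tdrkh, a Tudor protein of the piRNA pathway, went the other way, with 5.68, 2.69, 4.37 and 3.73 TPM in mESCs and 20.6 to 49.5 TPM in the embryo (log2 difference -3.18, SE 0.24, adjusted p = 9.2e-07).

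The E-box CACGTG, which is read by MAX and its partners, MGA among them, lay in 12 of the 20 promoters found for 18 genes of the germline list (60%, from 10 genes) and in 7.15% of all promoters of the same length. It was in 5 of 34 promoters of the cell cycle list (14.7%), in 2 of the 20 pluripotency promoters (10%), in 1 of 25 of the neural progenitor list (4%), and in none of 18 of the proneural and 43 of the neuron list. The letters read the same on both strands. The promoters of Sycp1, Hormad1 and Sycp3 are shown because these genes act on meiotic chromosomes and were described above. The box lies 94 bases before the start site in Sycp1 (chr3:102936051-102936350, - strand), 57 and 20 bases before it in Hormad1 (chr3:95559427-95559726, + strand) and 64 and 43 bases before it in Sycp3 (chr10:88459337-88459636, + strand), with the box in capitals.
Sycp1: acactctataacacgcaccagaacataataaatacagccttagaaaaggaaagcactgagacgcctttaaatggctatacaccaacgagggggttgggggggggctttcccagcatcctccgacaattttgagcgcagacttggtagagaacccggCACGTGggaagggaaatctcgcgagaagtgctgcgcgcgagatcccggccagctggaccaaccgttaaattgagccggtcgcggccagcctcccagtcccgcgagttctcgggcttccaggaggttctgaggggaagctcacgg
Hormad1: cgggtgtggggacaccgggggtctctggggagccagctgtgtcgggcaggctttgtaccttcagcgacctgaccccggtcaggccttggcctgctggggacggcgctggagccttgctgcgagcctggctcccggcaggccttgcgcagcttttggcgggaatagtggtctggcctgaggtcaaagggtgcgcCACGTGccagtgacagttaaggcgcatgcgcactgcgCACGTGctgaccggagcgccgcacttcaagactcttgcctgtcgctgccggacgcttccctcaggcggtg
Sycp3: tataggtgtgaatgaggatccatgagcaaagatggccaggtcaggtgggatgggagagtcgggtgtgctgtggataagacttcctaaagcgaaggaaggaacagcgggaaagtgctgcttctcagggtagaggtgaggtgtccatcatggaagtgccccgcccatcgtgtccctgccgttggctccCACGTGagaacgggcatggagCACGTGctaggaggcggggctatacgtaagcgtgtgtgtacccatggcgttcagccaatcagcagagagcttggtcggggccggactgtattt
Among the genes of the Polycomb complex that recognises such boxes, Mga, Pcgf6 and L3mbtl2 were higher in mESCs (differences 1.23, 1.81 and 1.93), and E2f6 was not called (-0.99, and -1.02 with a call without H 1).

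Genes of the 2-cell-like state, a rare state of cultured mESCs that resembles the embryo at its first cleavage, were found chiefly in mESCs and set the clones apart. Of the 11 on the list 9 could be tested, 8 of them only because of their level in mESCs, which all but fixes their direction. The 9 had a median difference of 2.45 and were called higher, and 7 were called when clone and region means served as the units. Zscan4f, a zinc finger factor active at the activation of the zygotic genome, had 18.8 and 15.9 TPM in the B6-1 libraries and 78.4 and 86.3 TPM in the B6-2 libraries, and all 9 embryonic libraries were listed at 0 (log2 difference 6.26, SE 0.14, adjusted p = 3.9e-10). Zscan4c had 2.6 and 2.39 TPM in the B6-1 libraries and 18.3 and 15.5 TPM in the B6-2 libraries and was also at 0 throughout the embryo (log2 difference 3.85, SE 0.14, adjusted p = 5.5e-09). B6-2 was above B6-1 in both, by 2.22 for Zscan4f (adjusted p = 0.0015 by limma) and by 2.53 for Zscan4c (adjusted p = 0.0012 by limma). Between the clones 71 genes were higher in B6-2 (0.387%) and 24 lower (0.131%), and 6 of the 9 were among the 71. Some genes passed the filter through a single clone, so that their direction between the clones was all but fixed. Tcstv3 is such a gene, with 0.251 and 0 TPM in the B6-1 libraries and 1.93 and 2.775 TPM in the B6-2 libraries. These counts are thus no support for a direction. With a pseudocount of 0.1 in place of 0.5, 36 genes were higher in B6-2. Copies within the Zscan4, Usp17l and Tcstv families share long stretches of sequence, so the division of reads between them is uncertain.

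Formative and primed genes, which rise as the epiblast leaves the naive state, went in both directions, with 2 of 12 tested higher and 5 lower. These shares, 16.7% and 41.7%, stand against 19.9% and 32.1% of all genes, and the median of -0.50 against -0.27. Dnmt3b, a DNA methyltransferase of the epiblast, and Foxd3 were higher (4.19 and 2.62). Fgf15, Sox3, Otx2, Pou3f1 and Lef1 were lower, and all 5 are genes that the neural tube uses as well. Fgf15 had 0.23, 0.334, 0.379 and 0.265 TPM in mESCs and 118 TPM in F, 9.36 TPM in THy/PHy, 21.3 TPM in M and 33.3 TPM in H (log2 difference -5.22, SE 0.24, adjusted p = 3.2e-08). Fgf5, the usual primed marker, did not reach 1 TPM in any library and was not tested.

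The medium held LIF and inhibitors of GSK3 and MEK, whose part in the levels of signalling genes cannot be told apart from that of stage. In the LIF and STAT3 pathway 4 of 11 genes were higher and 4 lower (36.4% each, against 19.9% and 32.1% of all genes), and 5 and 2 with TMM. Socs3, the feedback inhibitor that STAT3 induces, had 55.2, 56.5, 62.2 and 71.3 TPM in mESCs and 1.41 to 16.5 TPM in the embryo (log2 difference 2.82, SE 0.28, adjusted p = 8.5e-06), and Pim1, Lifr and Pim3 were higher by 2.14, 1.59 and 1.44. The lower genes included Jak2 at 1.23 to 2.2 TPM in mESCs and 19 to 33.9 TPM in the embryo (log2 difference -3.64, SE 0.15, adjusted p = 1.4e-08). Jak1 (-0.44), Il6st (0.65) and Stat3 (0.96) were not called.

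Among genes of the FGF and ERK pathway 5 of 17 were higher and 6 lower (29.4% and 35.3%, against 19.9% and 32.1% of all genes). Fgf4, the ligand that mESCs make themselves, had 111, 115, 131 and 131 TPM and at most 0.0489 TPM in the embryo (log2 difference 7.92, SE 0.13, adjusted p = 1.5e-10). Etv4, Etv5 and Spry2, which FGF signalling induces, were higher in mESCs as well, at 3.38, 3.11 and 2.20. Other ERK targets were lower. Dusp4, a phosphatase that ERK induces, had 0.851, 0.668, 0.934 and 1.31 TPM in mESCs and between 28.6 and 127 TPM (median 83.2) in the embryo (log2 difference -5.85, SE 0.28, adjusted p = 3.5e-08), and Egr1 differed by -2.04. Of the receptors, Fgfr2 (-2.77) and Fgfr3 (-3.21) were lower and Fgfr1 was not called (-0.27).

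Of 16 WNT pathway targets and effectors 8 were lower and 4 higher (50% and 25%, against 32.1% and 19.9% of all genes), with a median of -0.97. Of the 16, 5 entered the test through the embryonic libraries alone and 1 through mESCs alone, which all but fixed their direction. Nkd1, an inhibitor that WNT signalling induces, had 0.29, 0.841, 0.417 and 0.751 TPM in mESCs and between 32.3 and 85.5 TPM (median 49.9) in the embryo (log2 difference -5.55, SE 0.19, adjusted p = 4.3e-09), and Axin2, another feedback target, had 2.54 to 3.87 and 22.8 to 50.3 TPM (log2 difference -3.18, SE 0.18, adjusted p = 9.8e-08). Notum, a secreted WNT inhibitor, went the other way, with 50.7, 47.8, 33.4 and 29.6 TPM in mESCs and 0.384 to 2.36 TPM in the embryo (log2 difference 4.68, SE 0.21, adjusted p = 2.5e-08). Cdx1, a homeobox target, ran from 4.87 to 7.84 TPM in mESCs and was listed at 0 in all embryonic libraries. The TCF factors split, with Tcf7 (1.71) and Tcf7l1 (1.75) higher in mESCs and Lef1 (-3.23) and Tcf7l2 (-2.43) lower. Beta-catenin itself (Ctnnb1) ran from 553 to 709 TPM in mESCs and 564 to 969.5 TPM in the embryo and was not called (-0.45).

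In the NODAL, activin and BMP list 6 of 14 genes were higher and 4 lower (42.9% and 28.6%, against 19.9% and 32.1% of all genes). The ligand Nodal (56.5 to 59.1 TPM in mESCs, 0 to 0.197 TPM in the embryo), its co-receptor Tdgf1, its antagonists Lefty1 and Lefty2, the related ligand Gdf3 and the inhibitory Smad7 made up the higher ones, with differences from 2.33 (Smad7) to 10.06 (Tdgf1). The lower ones were Id1, Id2, Id4 and Bmp7. Id4, an inhibitor of bHLH factors that neural progenitors express, had 0.532, 0.53, 0.925 and 1.12 TPM in mESCs and between 45.8 and 149 TPM (median 111) in the embryo (log2 difference -6.37, SE 0.18, adjusted p = 1.2e-09).

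Of the metabolic lists, that of amino acid and folate metabolism was mostly higher. For threonine, serine and folate metabolism 17 of 24 were higher in mESCs and 1 was lower, with a median of 1.64. Tdh, threonine dehydrogenase, on which mouse stem cells depend for glycine and folate units, had 502 and 484 TPM in the B6-1 libraries and 457 and 479 TPM in the B6-2 libraries and at most 0.616 TPM in the embryo (log2 difference 9.52, SE 0.24, adjusted p = 6.5e-10). Slc7a3, a transporter of cationic amino acids, followed with 167, 169, 160.1 and 151 TPM in mESCs and 0.505 to 2.58 TPM in the embryo (log2 difference 6.74, SE 0.27, adjusted p = 1.1e-08). Ass1 and Asns, which make argininosuccinate and asparagine, were higher by 5.43 and 3.72, and Mthfd1 and Shmt1 of the folate cycle by 3.18 and 3.18. Mthfd2l was the lower gene (-2.93). Against F alone 9 of the 24 were higher, where 14.53% of all genes were called higher and 26.9% lower.

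Of 24 glycolysis genes 10 were higher and 5 lower (41.7% and 20.8%, against 19.9% and 32.1% of all genes), with a median of 0.62. Their summed TPM was 11532.5 to 12340.8 in mESCs and 5172 to 7491 in the embryo, without overlap. Isoforms of several steps also went in opposite directions. Slc2a3, a glucose transporter, had 335, 390, 407 and 369.8 TPM in mESCs and 5.6 to 16.1 TPM in the embryo (log2 difference 5.12, SE 0.24, adjusted p = 2.9e-08). Hexokinase switched from Hk1, which was lower (-1.42), to Hk2, which ran from 120.1 to 148 TPM in mESCs and 3.22 to 16.4 TPM in the embryo (log2 difference 4.15, SE 0.19, adjusted p = 2.5e-08). Enolase and aldolase did likewise. Eno1 was higher (1.66) and the neuronal Eno2 lower (-4.45), and Aldoa was higher (1.87) and Aldoc, of radial glia and astrocytes, lower (-3.18). Pkm, the pyruvate kinase gene, was not called (0.71).

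Cell cycle genes stood differently against F than against the other regions. Over the 4 regions 18 of 37 genes were higher in mESCs and 9 lower (19.9% and 32.1% of all genes), with a median of 0.61. Against F 8 were higher and 15 lower (14.53% and 26.9% of all genes), with a median of -0.46. Against THy/PHy the counts were 18 and 8 (20.7% and 32.2% of all genes), against M 19 and 9 (19% and 33.4%) and against H 20 and 8 (23.9% and 30.6%). These 4 comparisons share the mESC libraries, F is 1 library that is assumed to vary as the other groups do, and no test was made of the difference between regions for the list. Top2a, the topoisomerase of dividing cells, had 322, 328, 385 and 384 TPM in mESCs, 487 TPM in F, 115, 80.8 and 62.8 TPM in THy/PHy, 60.5 and 82.3 TPM in M and 72.2, 55 and 85.7 TPM in H. F was thus above every mESC library and the other embryonic libraries far below. Mki67, the proliferation antigen, had 55.5, 57.2, 54 and 53.5 TPM in mESCs and 167 TPM in F, with 27.1 to 167 TPM over all embryonic libraries, and was not called over the regions (-0.05).

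Some cyclins separated mESCs from every embryonic library. Cyclin E1 (Ccne1), which drives entry into S phase, ran from 94.8 to 102 TPM in mESCs and from 8.93 to 20.1 TPM in the embryo (log2 difference 2.82, SE 0.16, adjusted p = 1.1e-07). Ccnd2, the D cyclin of neural progenitors, had 3.87, 3.16, 1.31 and 2.2 TPM in mESCs against 372 TPM in F and 57.1 to 372 TPM over the embryonic libraries (log2 difference -5.39, SE 0.19, adjusted p = 4.8e-09), while Ccnd3 was higher in mESCs (2.00) and Ccnd1 was not called (-0.81). Among the inhibitors of cyclin-dependent kinases, Cdkn1c (p57), an imprinted gene that cells leaving the cycle express, had 2.63, 2.87, 1.49 and 2.81 TPM in mESCs and between 349 and 741 TPM (median 535) in the embryo (log2 difference -7.40, SE 0.20, adjusted p = 9.3e-10). Cdkn1b was lower, at 12.1 to 18.6 TPM in mESCs against 47.9 to 82.3 TPM, and Cdkn1a (2.43) and Cdkn2a (4.00) were higher. Cdk5r1, the activator of the neuronal kinase Cdk5, was lower (log2 difference -6.78, SE 0.25, adjusted p = 6.7e-09). Cdk4 had 1064, 1058, 956 and 896 TPM in mESCs and 404 to 1923 TPM in the embryo and was not called.

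**Figure D2:**
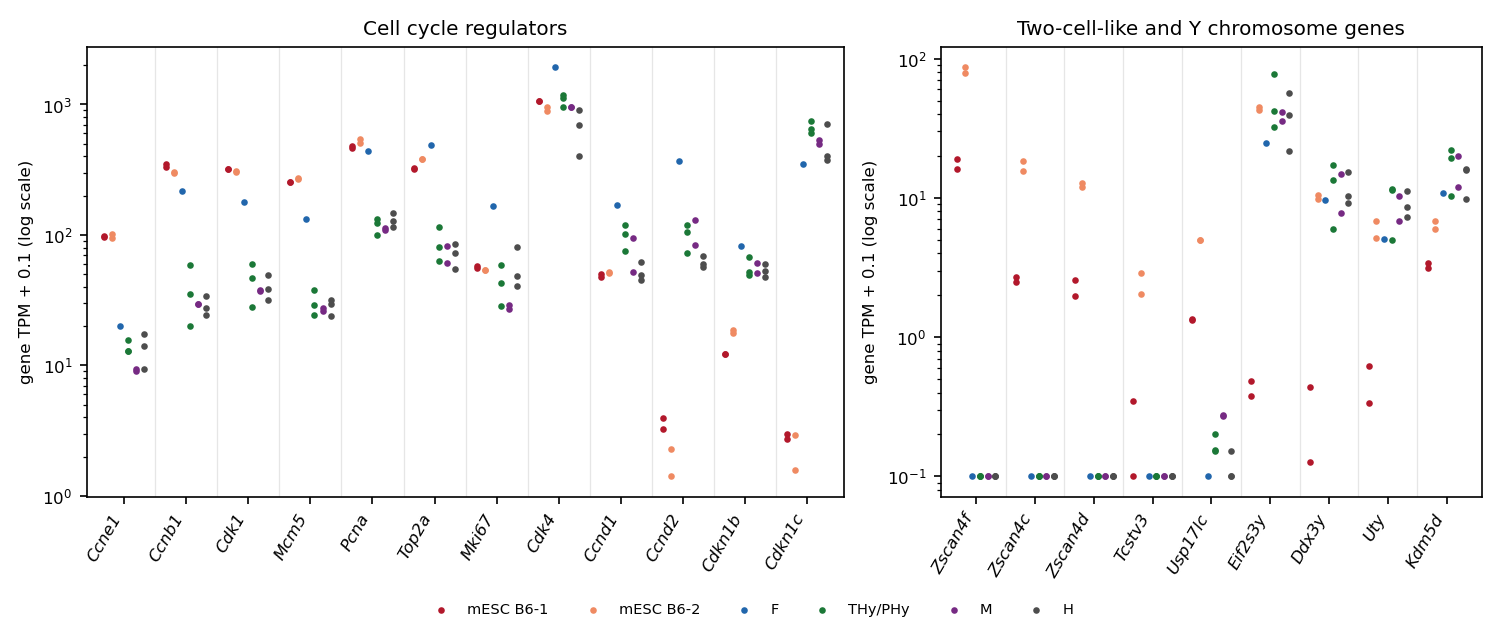
TPM + 0.1 (log scale, vertical axis) in each library for 12 cell cycle genes (left) and for 5 genes of the 2-cell-like state and 4 of the Y chromosome (right), 1 point for a library, colours as groups. Top2a and Mki67 in F lie above mESCs, and the B6-2 libraries lie above the B6-1 libraries for Zscan4f, Zscan4c and Eif2s3y.

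Enzymes of DNA methylation included 5 higher and 3 lower genes of 13 (38.5% and 23.1%, against 19.9% and 32.1% of all genes). Dnmt3l, the catalytically inactive partner of the de novo enzymes, had 162, 137, 155 and 146 TPM and at most 0.118 TPM in the embryo (log2 difference 8.14, SE 0.14, adjusted p = 1.5e-10). Dnmt3b ran from 67 to 73.5 TPM in mESCs and 1.79 to 5.66 TPM in the embryo (log2 difference 4.19, SE 0.19, adjusted p = 2.9e-08), whereas Dnmt3a had 66.9 to 107 and 73.9 to 149 TPM, overlapped and was not called (-0.16). Uhrf1, which brings the maintenance enzyme Dnmt1 to replicated DNA, had 372, 402, 359 and 382 TPM in mESCs and 154 TPM in F, 31.5 TPM in THy/PHy, 29.4 TPM in M and 33.2 TPM in H (log2 difference 3.02, SE 0.19, adjusted p = 2.2e-07). The TET dioxygenases, which oxidise methylcytosine, divided between the tissues. Tet1 was higher at 102 to 124 against 6.2 to 16 TPM (log2 difference 3.51, SE 0.25, adjusted p = 7.1e-07), Tet3 was lower at 2.9 to 3.25 against 30.9 to 66.3 TPM (log2 difference -3.80, SE 0.18, adjusted p = 3.8e-08), and Tet2 was not called (0.94).

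Of 34 Polycomb subunits 11 were higher and 11 lower (32.4% each, and 15 and 8 genes with TMM). Over all genes 19.9% were higher and 32.1% lower, so the lower share was near that over all genes. Of the complex that methylates histone H3, Eed (2.47), Suz12 (2.07), Jarid2 (1.60), Mtf2 (1.86), Aebp2 (1.89) and Epop (3.91) were higher, Phf1 was lower (-1.61), and the methyltransferases Ezh2 (0.11) and Ezh1 (-0.37) were not called. The chromobox readers, of which a complex holds 1, changed over. Cbx7 had 83, 83.9, 87 and 85.6 TPM in mESCs and 2.31 to 6.24 TPM in the embryo (log2 difference 4.18, SE 0.16, adjusted p = 7.8e-09), and Cbx2, Cbx6 and Cbx8 were lower (-1.07, -1.77 and -2.61). Phc2 (-3.85) and Bmi1 (-2.29) were lower as well.

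BAF subunits, of the chromatin remodelling complex that exchanges parts as progenitors become neurons, were lower for 18 of 28 genes and higher for Actl6a and Ss18 (median -1.27, with 13 lower and 3 higher under TMM). These shares, 64.3% lower and 7.14% higher, stand against 32.1% and 19.9% of all genes. In the exchanged pairs the neuronal members were further from 0 than their partners, a contrast that was not tested. Against F alone, 0 genes of the list were called higher, Actl6a and Ss18 included. Actl6a, the subunit of dividing cells, had 211, 231, 199.6 and 188 TPM in mESCs and 137 TPM in F, 58.5 TPM in THy/PHy, 58.1 TPM in M and 35.1 TPM in H (log2 difference 1.71, SE 0.18, adjusted p = 1.1e-05). Its neuronal counterpart Actl6b had 0.147, 0.0568, 0.201 and 0 TPM in mESCs and between 61.2 and 173 TPM (median 140.5) in the embryo (log2 difference -7.52, SE 0.23, adjusted p = 2.2e-09). Ss18 was higher (1.01) and Ss18l1 lower (-3.20). Smarcc1, which mESCs use, was not called (0.16, 95% interval -0.08 to 0.41), and Smarcc2 was lower (-3.93). That interval leaves out the shift from scaling, and TMM moved the median of the list from -1.27 to -0.93. Of the ATPases Smarca2 (-3.98) was further below its embryonic level than Smarca4 (-1.34), a difference of differences that was not tested. Bcl11a and Bcl11b, zinc finger subunits of neurons, were lower by the largest amounts after Actl6b (-6.58 and -5.52).

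Among post-transcriptional regulators an exchange of related genes was seen in the splicing list. Lin28a, which blocks maturation of the let-7 miRNAs, ran from 78.5 to 95.9 TPM in mESCs and 0.126 to 2.05 TPM in the embryo, and Trim71, a let-7 target, from 74.3 to 93.5 and 0.201 to 0.464 TPM (log2 difference 6.60, SE 0.13, adjusted p = 2.8e-10). Of 15 genes of the let-7 axis and oncofetal RNA-binding proteins 6 were higher and 4 lower (40% and 26.7%, against 19.9% and 32.1% of all genes). TMM called 7 higher and 0 lower, and edgeR called 0 lower, so the lower calls depended on the processing. Lin28b was not called (-0.64). Of 30 splicing regulators 18 were lower and 4 higher (60% and 13.3%, against 32.1% and 19.9% of all genes), with a median of -3.30. Ptbp1, which represses neuronal exons, had 1009, 1044, 1016 and 1018 TPM in mESCs and 459 TPM in F, 252 TPM in THy/PHy, 202 TPM in M and 229.5 TPM in H (log2 difference 1.92, SE 0.14, adjusted p = 6e-07), and its neural relative Ptbp2 had 31.3, 33.2, 32 and 37.1 TPM and 288 TPM in F, 265 TPM in THy/PHy, 257 TPM in M and 245 TPM in H (log2 difference -2.95, SE 0.18, adjusted p = 2.1e-07). Rest, the repressor of neuronal genes, was higher (log2 difference 3.65, SE 0.16, adjusted p = 1.8e-08), and Srrm4, the splicing factor that targets Rest and neuronal microexons, was lower (log2 difference -4.21, SE 0.20, adjusted p = 3.4e-08). Celf3, Elavl3 and Elavl4, RNA-binding proteins of neurons, were lower by more than 6 (-7.74, -7.19 and -6.90).

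Of 38 epithelial and neural adhesion genes 12 were higher in mESCs and 20 lower (31.6% and 52.6%, against 19.9% and 32.1% of all genes). Cdh1 (E-cadherin) had 132 and 132 TPM in the B6-1 libraries and 141 and 149 TPM in the B6-2 libraries and 0.139 TPM in F, 6.92 TPM in THy/PHy, 3.67 TPM in M and 4.26 TPM in H (log2 difference 5.55, SE 0.30, adjusted p = 7.7e-08). Cdh2 (N-cadherin) had 1.38, 1.43, 1.2 and 1.05 TPM in mESCs and 199 TPM in F, 198 TPM in THy/PHy, 179.6 TPM in M and 163 TPM in H (log2 difference -6.70, SE 0.15, adjusted p = 4.1e-10). Neither overlapped between the groups. Other epithelial genes were higher as well, among them the tight junction gene Cldn4 (log2 difference 4.91, SE 0.31, adjusted p = 2.5e-07), the desmosomal cadherin Dsg2 (4.83) and the connexin Gjb5 (4.72). The lower genes were chiefly those of axons and synapses, among them Chl1 (-6.72), Nrxn3 (-6.46), L1cam (-5.12) and Ncam1 (-4.43). Gja1 (connexin 43) had 76.1, 78.5, 49.8 and 43.3 TPM in mESCs and 22.1 to 139.9 TPM in the embryo and was not called.

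**Figure D3:**
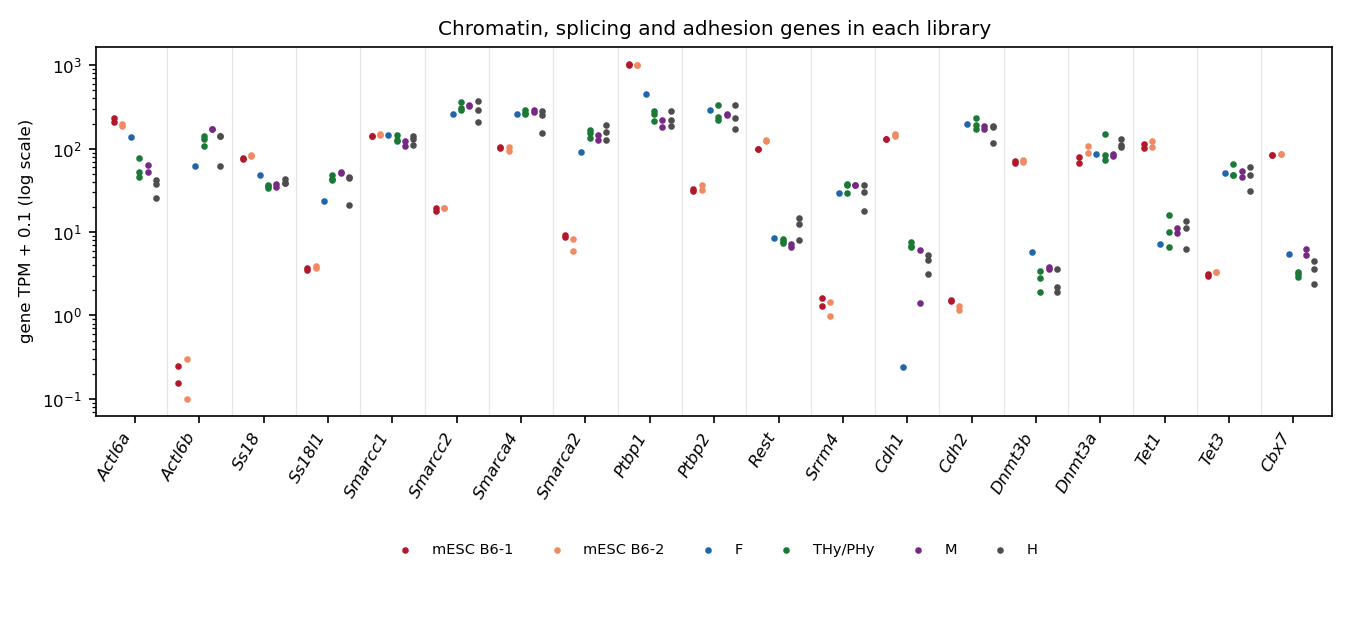
TPM + 0.1 (log scale, vertical axis) in each of the 13 libraries for chromatin, splicing and adhesion genes, placed as pairs of related genes where possible, with colours as groups. Actl6a, Ss18, Ptbp1, Rest, Cdh1, Dnmt3b, Tet1 and Cbx7 are higher in mESCs and Actl6b, Ss18l1, Ptbp2, Srrm4, Cdh2 and Tet3 lower, while Smarcc1 and Dnmt3a overlap between the groups.

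Neural progenitor genes were lower in mESCs for 21 of 24, with a median of -3.87, and Sox2 was the member that was higher, though not without H 1. Of the 24, 6 entered the test through the embryonic libraries alone. In bulk libraries fewer cells of a type and less RNA in each cell cannot be told apart. Fabp7, the lipid-binding protein of radial glia, had 0, 0.124, 0.123 and 0 TPM in mESCs, 917 TPM in F, 844, 394 and 285 TPM in THy/PHy, 820.3 and 1006 TPM in M and 250.5, 504 and 1346 TPM in H. It was near 0 in the stem cells and varied severalfold among embryonic libraries of a region (log2 difference -10.24, SE 0.42, adjusted p = 1.3e-08). Ptn, a growth factor secreted by progenitors, was listed at 0.157, 0, 0.167 and 0.0753 TPM in mESCs and between 263 and 771 TPM (median 329) in the embryo (log2 difference -9.23, SE 0.14, adjusted p = 1.5e-10). The Notch target Hes5 had 0 to 0.0988 TPM in mESCs and 196 TPM in F, 50.9 TPM in THy/PHy, 89.9 TPM in M and 25.2 TPM in H (-6.81), whereas Hes1, another Notch target, had 36.6, 40.8, 33.9 and 45 TPM in mESCs, 11.8 to 54.1 TPM in the embryo and no call (0.45). Pax6 (-5.47), Nes (-5.21), Sox1 (-3.56) and Vim (-1.84) were lower, with Vim still at 237 to 329 TPM in mESCs.

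Proneural factors, which commit progenitors to neurogenesis, were lower for 16 of 18 and higher for none, with a median of -5.07, and 15 entered the test through the embryonic libraries alone. Myt1, a zinc finger factor of neurogenesis, had 0.0384, 0.136, 0.0198 and 0.0662 TPM in mESCs and between 14.4 and 80.6 TPM (median 63.8) in the embryo (log2 difference -6.64, SE 0.31, adjusted p = 2.9e-08). The lowest embryonic library was thus far above mESCs, and Neurog2 (-5.45), Insm1 (-5.69) and Ebf3 (-6.50) were lower. Olig2, a bHLH factor of ventral progenitors, was found in mESCs at 15.7, 17, 18.7 and 18.7 TPM, within the embryonic range of 0.925 to 72.9 TPM, and was not called (0.26).

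All 32 genes of young and postmitotic neurons were lower in mESCs, with a median of -6.42 and differences from -9.04 to -1.99. Of the 32, 10 entered the test through the embryonic libraries alone. The summed TPM of the list was 365 to 436 in mESCs, 7050 in F and 6324 to 14592.5 over the embryonic libraries. Stmn4, a regulator of microtubules, had 0.0682, 0.344, 0 and 0 TPM in mESCs and between 159 and 474 TPM (median 377) in the embryo (log2 difference -9.04, SE 0.25, adjusted p = 1.1e-09), and Nsg1, a neuronal endosome protein, had 0.366 to 1.29 and 181 to 956 TPM (log2 difference -8.80, SE 0.33, adjusted p = 6.6e-09). Dcx, of migrating neurons, was below 0.1 TPM in every mESC library and lay between 128 and 311 TPM (median 234) in the embryo (log2 difference -8.58, SE 0.15, adjusted p = 1.7e-10). Several neuronal genes kept RNA in the stem cells. Stmn2 had 155, 149.7, 148 and 139.8 TPM in mESCs against 321 to 1004 TPM (log2 difference -2.06, SE 0.19, adjusted p = 4.9e-06), Tubb3 had 65.4, 72.1, 41 and 45 TPM against 348 to 2059 TPM (log2 difference -4.64, SE 0.35, adjusted p = 9.3e-07), and Mapt ran from 49.6 to 67.8 against 157 to 622 TPM (-2.61). None of the 3 overlapped between the groups.

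**Figure D4:**
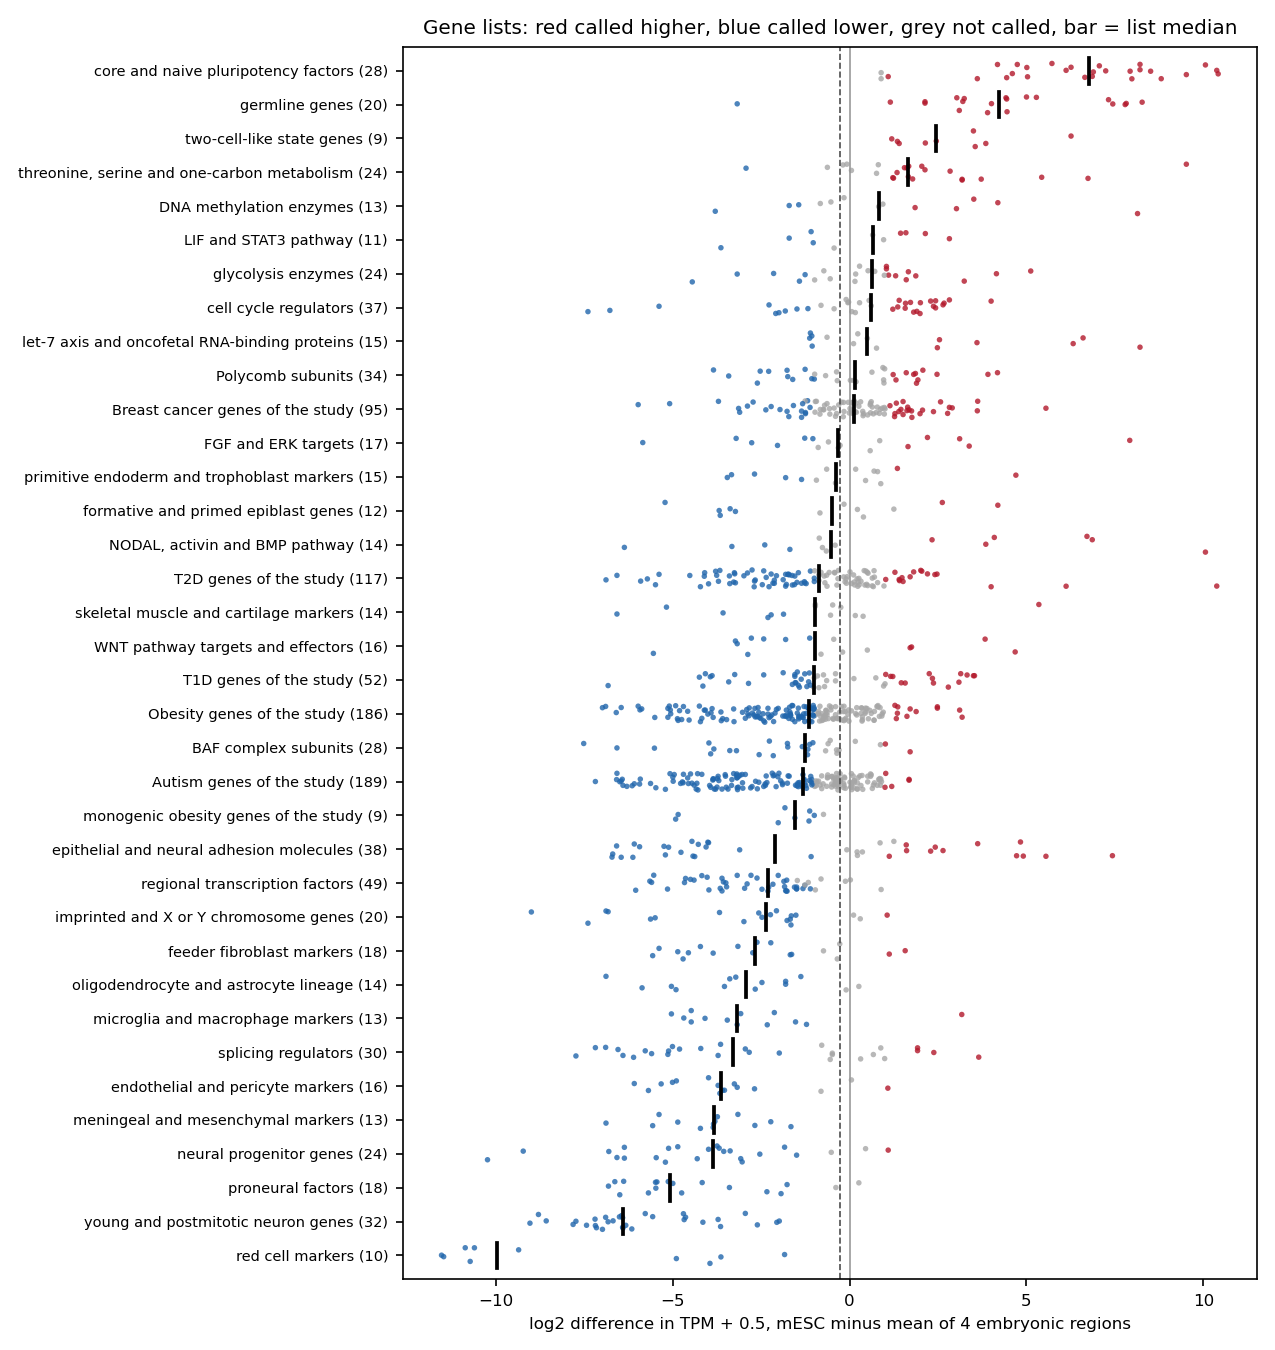
Log2 difference in TPM + 0.5 (horizontal axis), mESC minus the mean of the 4 embryonic regions, of each tested member of the gene lists (rows, with the number tested), with 1 point for a gene, red called higher, blue called lower, grey not called, and a black bar at the median of the list. The dashed line is the median of all genes tested, -0.27. The medians run from 6.76 for pluripotency factors to -6.42 for neuron genes and -9.98 for red cell markers.

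Regional transcription factors were lower in mESCs for 41 of the 49 tested and higher for none, with a median of -2.31, and 39 of the 50 listed stayed under 1 TPM in all mESC libraries. As most are expressed in 1 or a few regions, the equal weighting of regions made the differences smaller than the regional levels would show. Of those tested, 38 entered through the embryonic libraries alone. With clone and region means as the units 8 were lower, and edgeR on the estimated counts called 31. The counts of lower genes against single regions were 15 for F, 27 for THy/PHy, 31 for M and 38 for H, where 26.9%, 32.2%, 33.4% and 30.6% of all genes were lower. The count against F was thus near the share over all genes. Nkx2-1, of the basal forebrain and hypothalamus, had 128 TPM in F and 138, 115 and 71.8 TPM in THy/PHy and was under 0.1 TPM in mESCs. Emx2 and Six3 had the largest differences of the list (log2 difference -6.05, SE 0.70, adjusted p = 2.4e-05, and log2 difference -5.65, SE 0.82, adjusted p = 0.00012).

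Hypothalamic and posterior factors were likewise low in the stem cells. Otp, which specifies neuroendocrine neurons, had 129, 170 and 148 TPM in THy/PHy and at most 0.153 TPM in mESCs (-5.15). En1, of the midbrain and its boundary with the hindbrain, had 46.9 and 70.5 TPM in M and 0.627, 31.4 and 14.9 TPM in H, and ran from 0.0614 to 0.0884 TPM in mESCs (log2 difference -2.97, SE 0.73, adjusted p = 0.0044). The Hox genes, which give the hindbrain its segments, had their highest levels in H and varied among its libraries. Hoxb5 had 120.1, 147 and 0.471 TPM in the H libraries, at most 0.045 TPM in mESCs and no call over the regions (-1.48, adjusted p = 0.28 by limma), while Hoxb3, with 93.8, 90.6 and 62 TPM in H and 0.0909 to 0.533 TPM in mESCs, was called (-1.84). H 3 thus held Hoxb3 and scarcely any Hoxb5. The mESC libraries had 1 TPM or more throughout of Gbx2, Otx2 (2.75 to 4.88 TPM), Gata3 (2.44 to 5.07 TPM), Pou4f1 (2.7 to 5.57 TPM), En2 (1.3 to 1.74 TPM) and Gata2 (1.02 to 1.59 TPM).

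**Figure D5:**
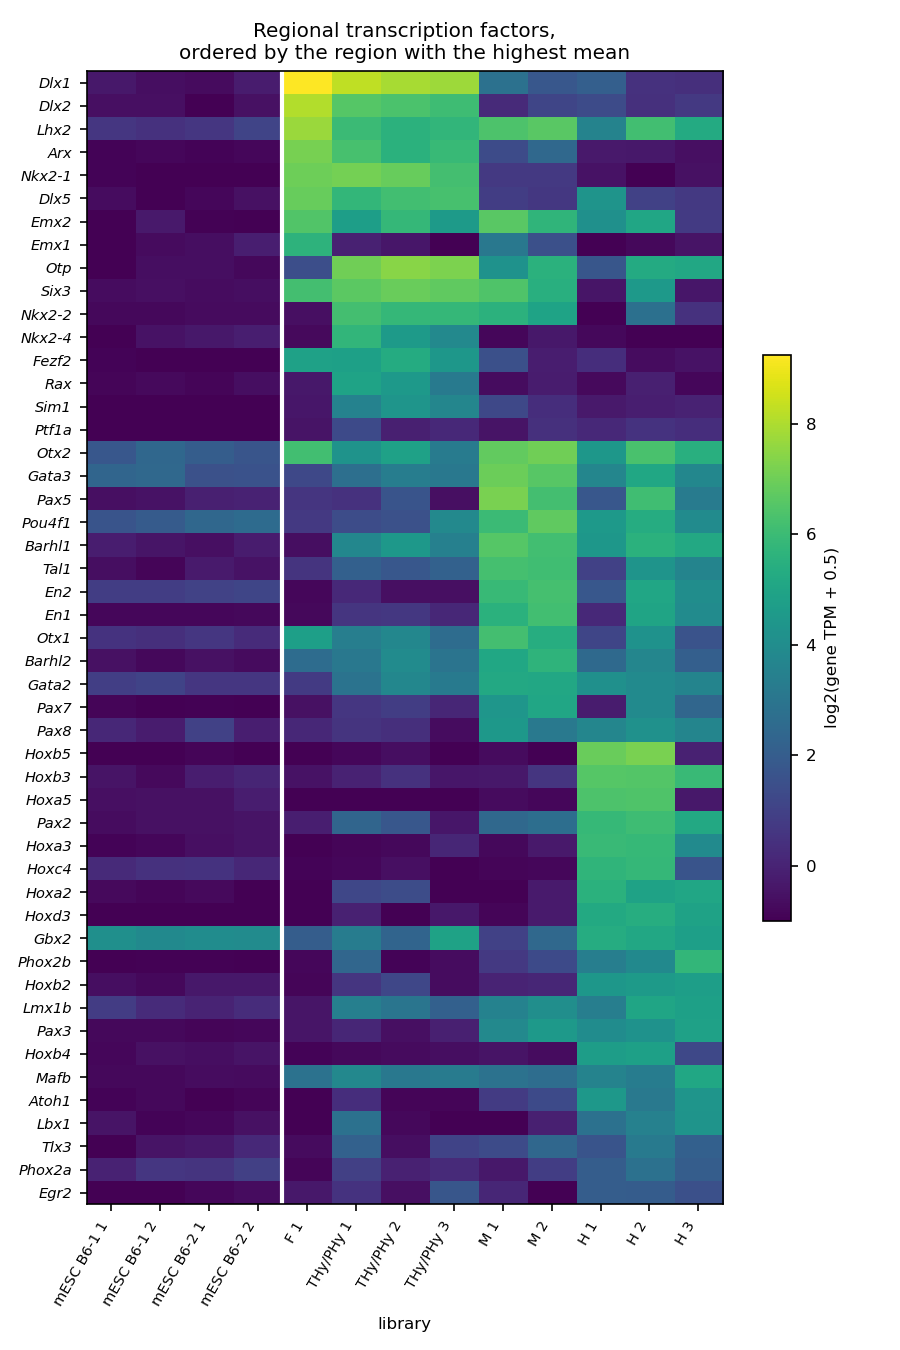
Heat map of log2(TPM + 0.5) (colour scale) of 49 of the 50 regional transcription factors (rows, ordered by the region with the highest mean) in the 13 libraries (columns). The 4 mESC columns are dark for most rows, with Gbx2 as the brightest, and the Hox rows are brightest in the H columns.

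Genes of the glial lineages were lower for 12 of 14 and higher for none, and 6 of the 14 entered the test through the embryonic libraries alone. Sparcl1, a secreted matrix protein of radial glia and vessels, had 0.475, 0.241, 0.209 and 0.293 TPM in mESCs and between 39 and 196 TPM (median 129) in the embryo (log2 difference -6.89, SE 0.16, adjusted p = 4.1e-10), and the glutamate transporter Slc1a2 had 0.0207 to 0.189 and 21.5 to 59.4 TPM (log2 difference -5.87, SE 0.12, adjusted p = 2.9e-10). Nfia, Nfib and Nfix, the factors that open gliogenesis, were lower (-5.04, -3.22 and -4.91).

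Markers of other cells of the embryo were detected in the punches, and their part in the differences given above was not tested. The red cell markers, 10 of 10 tested, were lower in mESCs (median -9.98), and their summed TPM was 2.34 to 3.08 in mESCs and 5315 to 12618.7 in the embryonic libraries. Of the 10, 8 entered the test through the embryonic libraries alone. Hbb-y, an embryonic globin, had 0, 0, 0.17 and 0 TPM in mESCs and between 942 and 2348 TPM (median 1618) in the embryo (log2 difference -11.48, SE 0.25, adjusted p = 4e-10). Hba-x, the embryonic alpha chain, was listed at 0 in all 4 mESC libraries and lay between 221 and 474 TPM (median 331) in the embryo (-9.36). Hba-a1, Hba-a2, Hbb-bs and Hbb-bt differed by -11.54, -10.87, -10.73 and -10.61, with the division of reads within each near-identical pair uncertain.

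Endothelial and pericyte markers were lower for 13 of 16, where 32.1% of all genes were lower. Of the 16, 12 entered the test through the embryonic libraries alone, which all but fixed their direction. The summed TPM of the list was 70.9 to 80.95 in mESCs and 190.9 to 314.5 in the embryo. Kdr, a VEGF receptor, had 0.0806 to 0.153 TPM in mESCs and 13.1 to 27.1 TPM in the embryo (log2 difference -5.01, SE 0.20, adjusted p = 1.1e-08), and Rgs5, of pericytes, had 0.0198 to 0.143 and 19.3 to 39.3 TPM (log2 difference -5.69, SE 0.19, adjusted p = 3.3e-09). Pecam1, an adhesion molecule of endothelium that mESCs are known to carry as well, was higher in mESCs at 64.1, 66.4, 61.8 and 70.7 TPM against 20.1 to 106 TPM (log2 difference 1.08, SE 0.30, adjusted p = 0.0084). Emcn and Kcnj8 were at 0 in all 4 mESC libraries. Microglial and macrophage markers were lower for 12 of 13, and 11 of the 13 were likewise tested only through the embryonic libraries. C1qb was at 0 in all mESC libraries and at 11.3 to 28.8 TPM in the embryo (log2 difference -5.04, SE 0.24, adjusted p = 3.7e-08), and C1qc at 0 to 0.0759 and 5.99 to 25.4 TPM (log2 difference -4.69, SE 0.34, adjusted p = 6.4e-07). Laptm5, a lysosomal protein of blood cells, was higher in mESCs at 117, 105, 123 and 119.8 TPM against 7.02 to 23.3 TPM (log2 difference 3.17, SE 0.27, adjusted p = 2.2e-06). With it the summed TPM of the list was 107 to 126 in mESCs and 72.9 to 219 in the embryo. Meningeal and mesenchymal markers were lower for all 13, with Igf2 (-6.89) and Dcn (-5.57) furthest, and their summed TPM was 23.8 to 51.1 in mESCs and 451 to 2316 in the embryo. Of the 13, 5 were tested only through the embryonic libraries.

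The culture itself could hold fibroblasts left from the feeder layer or cells on the way to endoderm or trophoblast. Of 18 fibroblast markers 13 were lower in mESCs and 7 were under 1 TPM in all 4 libraries, Prrx1, Lum and Dcn among them. Col3a1 had 13.2, 6.04, 2 and 4.67 TPM in mESCs and 102 to 523 TPM in the embryo (log2 difference -5.39, SE 0.44, adjusted p = 1.7e-06). Fn1 (fibronectin), which many cell types make, was higher at 474 to 522 against 80.8 to 349 TPM (1.57), as was Tagln at 11.1 to 24.9 against 2.87 to 18.6 TPM (1.12, and 0.99 with no call without H 1). These genes made the summed TPM of the list 555.8 to 578.5 in mESCs against 371 to 1688 in the embryo. Of 15 primitive endoderm and trophoblast markers tested 2 were higher, Tfap2c at 54.5, 64.4, 39.9 and 40.8 TPM against 0.11 to 17.7 TPM (log2 difference 4.70, SE 0.20, adjusted p = 1.4e-08) and Gata4 at 0.655 to 1.41 TPM (1.35), and 5 were lower, Col4a1, a basement membrane collagen of vessels as well, by the most (log2 difference -3.46, SE 0.21, adjusted p = 1.9e-07). The 13.3% higher and 33.3% lower stand against 19.9% and 32.1% of all genes, so the lower share was near that over all genes. TMM gave 5 higher and 5 lower, edgeR 4 and 3, and clone and region means as units left 3 lower. Sparc was not called, at 292 to 347 and 143 to 317 TPM. Cdx2 and Hand1 were under 1 TPM in every library.

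Muscle and cartilage markers were highest in H 1. Of 14 tested 6 were lower and 1 was higher (42.9% and 7.14%, against 32.1% and 19.9% of all genes). The summed TPM of the list was 367 to 537 in mESCs, 125 to 342.5 in F, THy/PHy and M, and 152 to 1657 in H. Most of the sum in mESCs was Mylpf alone, at 347 to 516 TPM. Of the 14, 9 entered the test through the embryonic libraries alone. H 1 had 942 TPM of Col2a1, the collagen of cartilage, and 118 TPM of Tnnt1, a troponin of slow muscle, against 73.3 and 9.26 TPM in H 2. The part of such tissue in the hindbrain values was not tested. Tnnt1 was not called over the regions, Sox9, which cartilage and radial glia share, was lower (log2 difference -6.58, SE 0.28, adjusted p = 1.6e-08), and Mylpf, a myosin light chain, was higher in mESCs at 506, 516, 369.6 and 347 TPM against 3.81 to 67.7 TPM (log2 difference 5.35, SE 0.69, adjusted p = 5.5e-05).

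Imprinted genes, expressed from the allele of 1 parent, were lower in mESCs for 13 of the 16 tested, with a median of -2.74, and Impact was higher (1.06). With genes of the Y chromosome and of X inactivation the list held 27 names, of which 20 were tested and 17 were lower, with a median of -2.36. H19, Meg3, Rian, Mirg, Kcnq1ot1, Xist and Tsix were not analysed here. Nnat, a proteolipid of the developing brain, had 10.8, 10.4, 9.91 and 9.35 TPM in mESCs and 5307 TPM in F, 9046 TPM in THy/PHy, 5871 TPM in M and 3403 TPM in H (log2 difference -9.00, SE 0.24, adjusted p = 1e-09). Dlk1, a Notch ligand relative and the paternally expressed gene of its cluster, had 2.01, 0.983, 0.276 and 0.305 TPM in mESCs and 61 TPM in F, 676, 920.5 and 652 TPM in THy/PHy, 86.8 and 78.9 TPM in M and 115, 102 and 89.2 TPM in H. THy/PHy stood above the other regions, and all were above mESCs (log2 difference -6.83, SE 0.17, adjusted p = 5.9e-10). Ndn and Magel2, neighbours in the Prader-Willi region, were lower (-5.50 and -5.63). Igf2r, expressed from the maternal allele, was not called (0.11).

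The 4 Y chromosome genes of the list were called lower over both clones, and 3 of them differed between the clones. Eif2s3y, a translation factor, had 0.278 and 0.386 TPM in the B6-1 libraries and 44.9 and 42.6 TPM in the B6-2 libraries, and lay between 21.4 and 77.3 TPM (median 39) in the embryo. B6-2 was within the embryonic range and B6-1 near 0, with a difference between the clones of 5.74 (adjusted p = 0.0011 by limma). Ddx3y and Uty differed likewise, by 3.99 and 2.87 (adjusted p = 0.0055 and 0.015 by limma). Kdm5d had 3.28, 3.06, 6.71 and 5.88 TPM in mESCs, and the difference between the clones, 0.89, was not called. Uba1y and Zfy1, Y chromosome genes outside the list that were chosen after their values were seen, were called higher over both clones (1.10 and 1.36), with 0.257, 0.218, 6.04 and 4.71 TPM in mESCs for Uba1y and 0, 0, 3.25 and 2.37 TPM for Zfy1. B6-1 was again near 0, and both were higher in B6-2 (2.99 and 2.72).

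The genes that the study gathered for body weight and disease were also set against the stem cells. Of 186 tested obesity genes 11 were higher in mESCs and 107 lower (5.91% and 57.5%, against 19.9% and 32.1% of all genes). The median was -1.16, with 22 higher and 88 lower under TMM and 21 higher with edgeR. Of the 186, 46 entered the test through the embryonic libraries alone and 1 through mESCs alone. Those furthest apart were Gdf15, a stress hormone (3.98 to 5.02 TPM in mESCs, 3.18), and Etv5 (3.11) above, and Scg3, a granule protein (-6.99), and Elavl4 (-6.90) below. All 9 genes of monogenic obesity were tested and 8 were lower, 5 with TMM and 4 with clone and region means as units. Of the 9, 3 entered the test through the embryonic libraries alone. Ntrk2, the BDNF receptor, had 1.09, 0.835, 1.01 and 0.756 TPM in mESCs and 30.8 to 61.4 TPM in the embryo (log2 difference -4.92, SE 0.14, adjusted p = 1.6e-09), and Tub differed by -4.85. Pomc, the precursor of melanocortins, was high in THy/PHy alone, with 104, 74.7 and 36.7 TPM there and 0.58 to 1.85 TPM in mESCs (-1.83). Sh2b1, an adaptor of the leptin receptor, was not called (-0.74).

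Autism genes were lower for 107 of 189 and higher for 5 (56.6% and 2.65%, against 32.1% and 19.9% of all genes). The median was -1.33, with 94 lower and 14 higher under TMM, 17 higher with edgeR and 3 higher without H 1. Of the 189, 30 entered the test through the embryonic libraries alone. Adsl (1.68) and Trip12 (1.68) were highest and Elavl3 (-7.19) lowest. Type 2 diabetes genes were lower for 56 of 117 and higher for 16 (47.9% and 13.7%, median -0.87). Of the 117, 26 entered the test through the embryonic libraries alone and 3 through mESCs alone. Pou5f1 and Dusp9, an ERK phosphatase (87.8 to 95 TPM in mESCs, 6.12), were highest. Type 1 diabetes genes were lower for 25 and higher for 14 of 52 (48.1% and 26.9%, median -1.01), so both shares were above those over all genes. Of the 52, 11 entered the test through the embryonic libraries alone and 1 through mESCs alone. The adaptor Skap2 (3.53) and Lmo7 were highest and Dlk1 and Efr3b (-4.25) lowest. Breast cancer genes were higher for 23 and lower for 20 of 95 (24.2% and 21.1%), where 19.9% and 32.1% of all genes were. Their median was 0.12 against -0.27 over all genes, and TMM called 31 and 17 and edgeR 35 and 19. The study's gene set enrichment analysis, made against all its other samples, reported significant enrichment of its breast cancer list in mESCs. Cdh1 and Epcam (3.62), which epithelia share with mESCs, were highest in that list, and Cend1 (-5.98) and Zfp703 (-5.09) lowest.

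Outside these lists, the genes with the largest differences included Rhox5, an X-linked homeobox gene, with 601 ± 138 TPM in mESCs (SD, n = 4) and at most 0.637 TPM in the embryo (log2 difference 9.51, SE 0.21, adjusted p = 4.1e-10). Zfp978 and Zfp980, zinc finger genes with near-identical copies, averaged 382 and 228 TPM in mESCs and were at most 0.635 TPM in the embryo (differences 9.26 and 8.72), so the locus that gave their reads is uncertain.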

How the data were processed

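RNA of mESCs and of E14.5 punches was made into mRNA libraries with a strand-specific kit and sequenced by the authors as single reads, with base calling by CASAVA 1.8.2. Per the study's methods, the deposited estimated counts were made by the authors with kallisto, which assigns reads to the Ensembl transcripts of GRCm38 without placing them on the genome, so that reads shared by near-identical genes are divided by estimation. The deposited gene TPM values were summed by the authors over the transcripts of a gene, with no scaling between libraries. Of 109282 transcripts, 98.8% matched the GENCODE M21 annotation of GRCm38, from which coordinates were taken, and those unmatched held 0.537 to 0.767% of a library's counts.

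Of the 34677 genes in the TPM table, 18343 had at least 1 TPM in at least 2 of the 13 libraries. Values were taken as log2(TPM + 0.5) and tested with limma 3.58.1 (trend) in R 4.3.3, with a group for each clone and region and the contrast of the mean of 2 clones against the mean of 4 regions. Genes passed at an absolute difference above 1 and a Benjamini-Hochberg adjusted p under 0.05. Library measures were tested with SciPy 1.17.1. On simulated counts for this comparison (32244 genes run, 16788 tested), 189 of 200 changed genes and 6 unchanged genes were called. The simulation had a fixed spread, no differences between regions or clones, and changes planted only in genes that were not low. It therefore does not give the error rates of the real comparison. Nothing in the labels says that libraries of a group came from separate cultures, and p-values then measure only the spread between these libraries. Totals of 9074581 to 22229582 estimated counts set the precision, which is poorest for genes of a few TPM.

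Over 21 pairs of libraries with the same replicate number, deviations from the group means correlated at -0.20 to 0.18, with 1 pair above 0.1. Libraries with different numbers may share embryos and were not checked for this. The values therefore do not settle whether embryonic libraries are paired. Genes were named by rule: Pou5f1 and Nanog, the 10 protein-coding genes with the largest called differences in each direction that had no overlap between the groups and a mean of at least 10 TPM, the 2 called members of each list with the largest differences and its most abundant member not called, other members where a whole list is described, and the 2 called members in each direction of each list of the study. The libraries, members and lists were chosen with earlier results of these data known, and the disease lists were gathered by the study. Alternatives were edgeR 4.0.16 and DESeq2 1.42.0 on the estimated counts summed per gene and rounded, TMM on TPM, other pseudocounts and filters, clone and region means as units, libraries weighted equally, all 70 libraries in the fit, robust variances, mitochondrial genes left out, the replicate number as a block, and each library left out. Promoters and motifs came from RefSeq (GRCm38.p6), 250 bases before to 50 after each of 32851 starts. Some members of the lists are counted in the totals and not reported here by name.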

Additional observations from a re-analysis of the deposited data

Results flagged for a closer look

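In 78 named genes and 10 library measures, the highest or lowest library was set against the others of its group, a check that chance fails in about 1 in 20 groups. Among the 4 mESC libraries, Zfp980 had 226, 225, 236 and 225 TPM, with the first B6-2 library apart by a share of 0.844 of the range. Ctnnb1 ran from 553 to 709 TPM, and the same library was highest, apart by 0.836 of the range. Among the 9 embryonic libraries, H 1 was apart in 3 measures: it had the lowest total count, 9074581, with a gap of 0.520 of the range, the highest mitochondrial share, 22.6%, with a gap of 0.541, and the highest share of TPM in the 100 most abundant genes, 47.8%, with a gap of 0.572. Calls without H 1 are given with the report's counts.

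The clones differed in 2-cell-like genes by a test of the difference itself. B6-2 minus B6-1 was 2.22 for Zscan4f and 2.53 for Zscan4c on the scale of log2(TPM + 0.5). Y chromosome genes differed between the clones as well, and their part in this difference was not tested.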

How the results depend on the processing

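Of 108 genes named by size of difference, by abundance or as the markers Pou5f1 and Nanog, 84 were called. These 84 kept their direction and their call in each of 28 alternative settings. They were picked for large called differences, so keeping the call was likely beforehand and says little on smaller differences. Among other list members that the report describes, Sox2 and Tagln lost the call without H 1, Cbx2, Pou4f1 and Smarca4 with TMM and with edgeR, and Gata3 and Hoxb3 with edgeR. Their calls with clone and region means as units are counted only by list. Genes higher and lower in mESCs numbered 3649 and 5883, and 4694 and 4961 with TMM on TPM, 5008 and 5428 with edgeR, 5166 and 5405 with DESeq2, 5570 and 5641 with edgeR and no filter, 3375 and 5526 with clone and region means as units, and 3721 and 5958 with all 70 libraries in the fit. No gene called in both was called in opposite directions by TMM, edgeR or DESeq2. Leaving out 1 library gave 3456 to 3957 higher and 5748 to 6041 lower. With the replicate block, for which F was left out, the counts were 4032 and 5886, against 3960 and 6001 without the block on the same libraries, and no call among the 108 genes was lost. The block follows the replicate numbers, which need not follow the sharing of embryos. Genes higher in B6-2 than in B6-1 numbered 36 with a pseudocount of 0.1 against 71. The difference in detected genes was -1028 to -912 when 1 library was left out and turned to 358 with a limit of 0.1 TPM (exact permutation test, two-sided, p = 0.12). The sign turned in 6 of the 108 genes, none of them called: Dnmt3a to 0.18 and Fgfr1 to 0.07 with TMM. Tek turned to -0.06 without F (0.16 at the other end, without M 1) and -0.02 with libraries weighted equally. Tnnt1 turned to -0.08 without F, -0.11 with libraries weighted equally and -0.10 with the block, and was 0.47 without H 1. Gja1 turned to 0.05 with DESeq2 and 0.26 with TMM, and ran from -0.41 without M 2 to 0.25 without M 1. Cdk4 turned to 0.34 with DESeq2, 0.30 with edgeR (0.26 with no filter), 0.25 with TMM and with the block, 0.19 without F and 0.08 with libraries weighted equally, and was -0.18 without H 1. The cause of these changes was not tested. F is 1 library, so nothing here measures the spread of forebrain libraries.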

Other observations

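Genes of cytoplasmic ribosomal proteins took 15.3 to 17.2% of TPM in the 4 mESC libraries and 5.91 to 12.1% in the 9 embryonic ones, so that the groups did not overlap. The 100 most abundant genes took 29.9 to 30.8% of TPM in mESCs and 24.4 to 34.4% in the embryonic libraries other than H 1.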
